A study of Mus musculus with 8 samples.

Results

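Bone morphogenetic protein (BMP) signalling and its Id targets were examined through 9 genes of the 27554 in the count table, in muscle stem cells sorted by the level of a Myf5 reporter. The genes were Bmp4 (a ligand), Bmpr1a (a type I receptor), Chrdl2 (a chordin-like secreted antagonist), Smad6 and Smad7 (inhibitory Smads) and Id1, Id2, Id3 and Id4. They were chosen by their role in the pathway and found by Ensembl identifier, and all 9 passed the filter on low counts. The choice was made with earlier results of these libraries known, among them a call of Chrdl2 between the fractions, and Chrdl2 is treated as selected on that measured difference. Between the fractions its values are therefore a description, nothing is read from counts of calls that include it, and calls of the remaining 8 genes are not independent support.

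BMP ligands bind pairs of type I and type II receptor kinases, which phosphorylate Smad1, Smad5 and Smad9 so that they enter the nucleus with Smad4. Id genes are direct targets of these Smads, and Id proteins hold E proteins away from DNA, so that myogenic factors such as Myod1 lack their partners. In muscle stem cells BMP signalling is known for keeping activated cells dividing and holding back differentiation, while extracellular antagonists and inhibitory Smads limit it.

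The cells came from hindlimb muscles of C57BL/6NTac mice with the alleles Pax7tm3955(T2A-ZsGreen)Tac and Myf5tm3956(T2A-E2Crimson)Tac, which join a fluorescent reporter to each gene through a self-cleaving peptide, and all groups carried both reporter alleles. Both fractions were Pax7-positive, with Myf5High and Myf5Low taken from the bright and the dim end of E2Crimson. Each fraction was sorted from females and from males, which gave 4 groups of 2 libraries, each library from a pool of 4 mice. Pool labels share a number between the fractions of a sex, and libraries with the same number are called a pool pair here, although the labels do not state that they hold the same mice. No age or treatment was given, and pooling hides differences between mice.

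Gene counts ranged from 3140361 to 4238427 per library, and 42.2% to 45.5% of counted reads fell in no gene or in more than 1. One transcript, Gm42418, took 20.1% to 28.8% of gene counts. Levels below are CPM (counts scaled to library size, with TMM factors). The 9 stem cell markers were present in every library, with means from 62.9 CPM (Myf5) to 3471 (Chodl) and Pax7 at 1287. Myf5, the sorted gene, had 128 and 116 CPM in Myf5High and 25.0 and 49.9 in Myf5Low of females, and 73.7 and 39.5 in Myf5High and 41.9 and 28.7 in Myf5Low of males. It was higher in Myf5High (log2 fold change 1.19, SE 0.265; edgeR adjusted p 0.0284), but male Myf5High replicate 2 lay within the Myf5Low range. Taken by sex, the value was 1.70 in females (SE 0.377, edgeR adjusted p 0.0649) and 0.69 in males (SE 0.374, edgeR adjusted p 0.808). Neither was called. The sort on the Myf5 reporter set the direction in advance, so these tests only check the sort. Means of the 8 immune markers ran from 0.293 CPM (Adgre1) to 15.3 (Lyz2), with Ptprc at 1.87, while the endothelial gene Egfl7 had 189.7 and the mural gene Acta2 had 125. As a check for a library deposited under 2 names only, the counts of replicates were compared, and their chi-square was 8.42 to 25.8 for each degree of freedom.

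The start regions of 4 genes are printed because the results turn on them: Id3 and Id2, which had opposite signs between the sexes, and Fstl1 and Fstl3, the listed antagonists that rose in Myf5High. They were taken from RefSeq on GRCm38.p6, from 250 bases before to 50 after the transcription start, and 6 of the 9 listed genes had an entry. Id3 lies at chr4:136143572-136143871 on the plus strand, Id2 at chr12:25096043-25096342 on the minus strand, Fstl1 at chr16:37776805-37777104 on the plus strand and Fstl3 at chr10:79777024-79777323 on the plus strand. Capitals mark GTCT, the Smad half-site, and GGCGCC, a GC-rich Smad site, on either strand. These motifs cannot overlap each other.
Id3: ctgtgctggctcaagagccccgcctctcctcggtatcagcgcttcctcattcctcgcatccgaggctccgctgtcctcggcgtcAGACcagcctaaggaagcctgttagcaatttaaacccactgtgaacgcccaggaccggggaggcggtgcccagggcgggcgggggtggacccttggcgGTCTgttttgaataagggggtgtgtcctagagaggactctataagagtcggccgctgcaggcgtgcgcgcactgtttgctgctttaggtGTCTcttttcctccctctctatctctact
Id2: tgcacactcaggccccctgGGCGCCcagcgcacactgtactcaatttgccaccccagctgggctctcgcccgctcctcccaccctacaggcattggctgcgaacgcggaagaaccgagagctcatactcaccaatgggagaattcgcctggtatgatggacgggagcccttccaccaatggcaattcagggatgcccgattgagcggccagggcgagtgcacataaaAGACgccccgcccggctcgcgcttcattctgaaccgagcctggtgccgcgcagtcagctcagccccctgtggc
Fstl1: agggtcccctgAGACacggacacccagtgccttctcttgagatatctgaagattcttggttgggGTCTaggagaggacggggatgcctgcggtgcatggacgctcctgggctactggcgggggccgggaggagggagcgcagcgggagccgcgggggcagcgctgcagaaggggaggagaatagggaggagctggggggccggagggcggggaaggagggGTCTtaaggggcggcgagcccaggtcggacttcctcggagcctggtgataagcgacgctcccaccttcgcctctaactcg
Fstl3: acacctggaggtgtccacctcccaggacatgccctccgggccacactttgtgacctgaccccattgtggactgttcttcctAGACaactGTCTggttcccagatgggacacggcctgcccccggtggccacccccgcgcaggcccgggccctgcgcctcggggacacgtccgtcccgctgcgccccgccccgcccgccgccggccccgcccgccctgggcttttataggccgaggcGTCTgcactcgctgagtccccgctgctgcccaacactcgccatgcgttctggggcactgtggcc

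GTCT was present 3 times in the Id3 window, 3 times in Fstl1, 3 times in Fstl3 and 1 time in Id2. It was present in 88% of all 32851 mouse promoters of this length, so its presence sets none of them apart. GGCGCC was found 1 time in Id2, and 11.9% of promoters held it. These matches describe letters, not binding.

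Levels were ordered by normalised CPM per kb of exon, which allows genes of different length to be compared. Id3 was highest at 269.9 ± 181 (SD, n = 8), and was above the next gene, Bmp4 at 101 ± 37.2, in 7 of 8 libraries. It was the highest of the 9 in 6 of 8, since Id2 was higher in male Myf5High replicate 2, and Bmp4, Id1 and Id2 were higher in male Myf5Low replicate 1. Bmp4, Chrdl2 (98.96 ± 56.3), Id2 (84.0 ± 19.5) and Id1 (76.7 ± 17.2) were not ordered beyond their spread, since each was above its lower neighbour in 5, 3 and 3 of 8 libraries for Bmp4, Chrdl2 and Id2. Id1 was above Bmpr1a in 8 of 8 libraries. Bmpr1a (4.88 ± 1.67), Smad7 (4.82 ± 2.34) and Id4 (3.46 ± 1.78) were not ordered beyond their spread, each being above its lower neighbour in 4, 5 and 6 of 8 libraries. Smad6 was lowest at 1.49 ± 0.731, from 8 to 30 counts per library, and its values carry a large counting error. Receptor and inhibitory Smad transcripts lay below those of the ligand, the antagonist and 3 of the 4 Id genes on the per-kb scale.

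**Figure D1:**
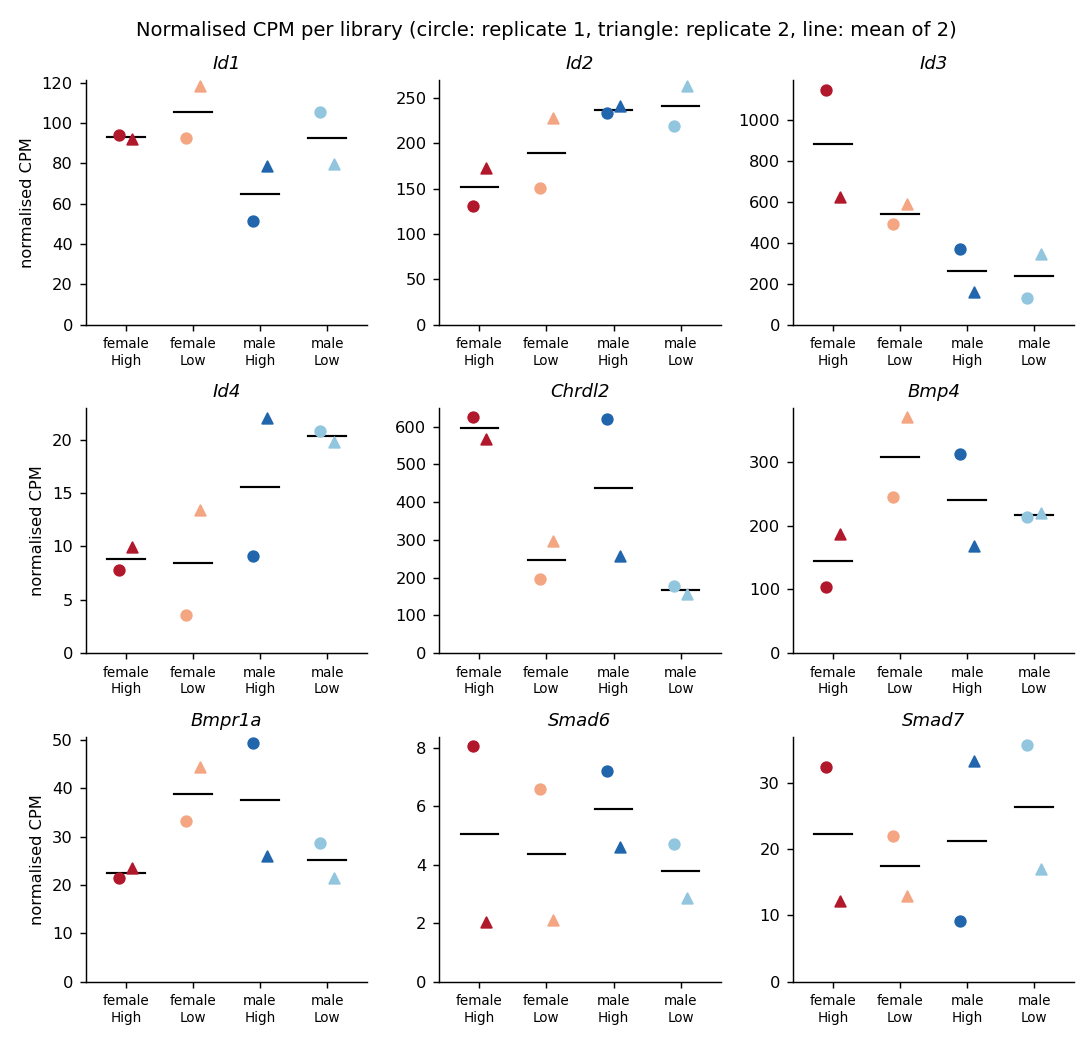
Normalised CPM of the 9 genes in each library, on linear axes from 0 with a separate scale per gene; circles are replicate 1, triangles replicate 2 and lines the mean of 2. Id3 is at 493 or above in all 4 female libraries and at 369 or below in all 4 male ones, and Chrdl2 is at 568 or above in 3 of 4 Myf5High libraries.

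Between Myf5High and Myf5Low, 1 of the 9 genes was called at an adjusted p under 0.05, against 1.2% of the 11730 genes tested (0.767% higher in Myf5High and 0.435% lower). That gene was Chrdl2, whose call was known when the genes were listed, so nothing is read from the count. The 8 genes beside Chrdl2 were not called by edgeR or DESeq2 in this comparison. Within females 0 of the 9 were called by edgeR, beside 0.332% of genes tested, and within males 0, beside 0.171%. Of the 8 genes beside Chrdl2, 1 (Bmp4) had an unadjusted p under 0.05 within females and 0 within males, where 863 and 782 of all genes tested had one, and DESeq2 called none of the 8 in either sex. The median log2 fold change of the 9 was -0.10, beside -0.02 over all genes tested. The plot of log2 fold changes shows both comparisons.

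**Figure D2:**
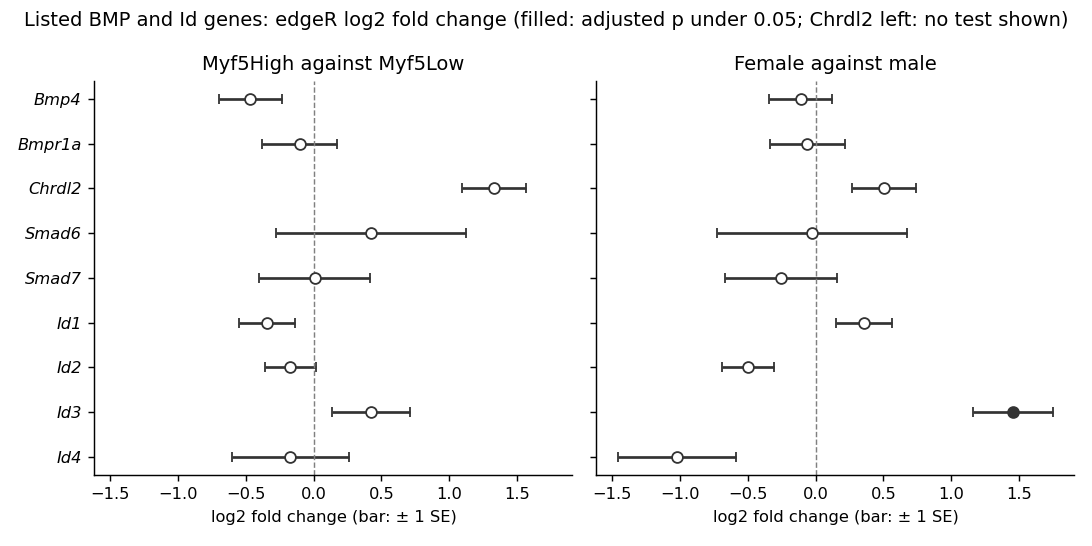
Log2 fold change of the 9 genes from edgeR, with bars of 1 SE; the left panel is Myf5High against Myf5Low and the right panel female against male, and filled points have an adjusted p under 0.05, except that no test is shown for Chrdl2 on the left. Chrdl2 lies farthest from 0 on the left at 1.33, and Id3 is filled on the right at 1.46.

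The ligand Bmp4 (ENSMUSG00000021835) had 103 and 188 CPM in Myf5High and 246 and 371 in Myf5Low of females, and 312 and 169 in Myf5High and 214 and 220.3 in Myf5Low of males. The female fractions did not overlap, with Myf5Low higher, while the male Myf5High libraries lay on either side of both Myf5Low libraries. With 2 libraries per fraction such a gap arises readily by chance. The log2 fold change of Myf5High against Myf5Low was -0.47 (SE 0.231) over both sexes, and Bmp4 was not called (edgeR adjusted p 0.56). It ranged from -0.72 without male Myf5High replicate 1 to -0.28 without male Myf5High replicate 2. Within females it was -1.08 (SE 0.33; edgeR adjusted p 0.263) and within males 0.15 (SE 0.326; edgeR adjusted p 1.0). The difference of these, -1.23 (SE 0.463), did not pass the threshold over all genes (edgeR adjusted p 1.0), and ranged from -1.72 to -0.72 when 1 library was left out, smallest in size without male Myf5High replicate 1. Without a filter on low counts the female value of -1.09 was called (edgeR adjusted p 0.0146). The male value ranged from -0.36 to 0.52 when 1 library was left out, so its direction was not stable.

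Bmpr1a (ENSMUSG00000021796), through which Bmp4 signals, had the same order of group means, highest in female Myf5Low and lowest in female Myf5High. The order lay within the spread: male Myf5High (37.6 ± 16.4 CPM, SD, n = 2) spanned both female Myf5Low libraries, and male Myf5Low overlapped female Myf5High. A link between the 2 genes was not tested. Bmpr1a had 21.3 and 23.4 CPM in female Myf5High and 33.2 and 44.5 in female Myf5Low. In males it had 49.2 and 26.0 CPM in Myf5High and 28.7 and 21.5 in Myf5Low. Myf5High was the lower fraction in both female pools and the higher one in both male pools. The log2 fold change was -0.79 (SE 0.392) in females and 0.59 (SE 0.388) in males, and neither was called (edgeR adjusted p 0.692 and 0.898). The male value was 0.0497 without male Myf5High replicate 1 and 0.97 without male Myf5High replicate 2. The female minus male difference was -1.38 (SE 0.552; edgeR adjusted p 1.0), and -0.84 without male Myf5High replicate 1. Over the table the test of this difference called 0 of 11730 genes (0% called, 533 at an unadjusted p under 0.05), while DESeq2 called 2, and none of the 9 listed genes was called by either tool.

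The antagonist Chrdl2 (ENSMUSG00000030732, chromosome 7, 100006172 to 100034728, GRCm38) encodes a secreted protein with chordin-type repeats that binds BMPs. It had 625 and 568 CPM in female Myf5High and 197 and 297 in female Myf5Low. In males it had 619.6 and 257 CPM in Myf5High and 178 and 156 in Myf5Low. Myf5High was higher in 4 of 4 pools, and 3 of its 4 libraries were above all others. Male Myf5High replicate 2, at 257, lay below female Myf5Low replicate 2, at 297, so the fractions overlapped. The same male library had the lowest Myf5 of the Myf5High libraries. The log2 fold change was 1.33 (SE 0.236) over both sexes, 1.27 (SE 0.333) in females and 1.39 (SE 0.335) in males. The male value moved with single libraries and was 0.62 without male Myf5High replicate 1 and 1.89 without male Myf5High replicate 2.

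Other BMP antagonists were taken from a list of 19, most of them secreted but with the membrane proteins Bambi, a pseudoreceptor, and Crim1 among them, of which 9 were tested and 6 had 0 counts in every library. This list was chosen with earlier results of these data known, so its counts are a description. Of the 9, 2 rose in Myf5High, 0 fell and 7 were not called (edgeR, Benjamini-Hochberg over all genes), beside 0.767% of all genes tested higher and 0.435% lower, with a median log2 fold change of 0.39 beside -0.02 over all genes. Summed over the 19 genes, their level was 607 to 674 CPM in Myf5High and 307 to 382 in Myf5Low. Most of this sum came from Fstl1, at a mean of 329.9 CPM in Myf5High and 138 in Myf5Low, and Nbl1, at 150.3 and 95.1. Their Myf5High and Myf5Low libraries did not overlap in 4 of the 9, against 4.58% of all genes tested (2.36% higher and 2.22% lower in Myf5High). These 4 were Fstl1, Fstl3, Nbl1 and Crim1. Of the 9, 5 were higher and 2 lower in Myf5High in 4 of 4 pools, beside 7.51% of all genes tested that were higher in 4 and 9.14% that were higher in 0 of the 4. Crim1, which was singled out after its values were seen, was the 1 of the 4 genes without overlap that had lower values in Myf5High, at a log2 change of -0.80 ± 0.287 (SE; adjusted p 0.295, edgeR).

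Fstl1 (follistatin-like, ENSMUSG00000022816, chromosome 16, 37776873 to 37836514), a secreted glycoprotein reported to bind Bmp4, rose in Myf5High. It had 314, 369.9, 345 and 290.3 CPM in the Myf5High libraries and 126, 154, 151 and 119.7 in the Myf5Low libraries. Every Myf5High library was above every Myf5Low library, at 329.9 ± 34.8 against 138 ± 17.4 CPM (SD, n = 4 each). The log2 fold change was 1.26 ± 0.181 (SE; adjusted p 0.000732, edgeR), and 4 of 4 pools had the same direction. It was 1.29 (SE 0.256; edgeR adjusted p 0.0343) in females and 1.23 (SE 0.256; edgeR adjusted p 0.0614) in males. With the pool number as a block in the fit, the female value was not called (edgeR adjusted p 0.0575). The female call was lost when any 1 of the 4 female libraries was left out (edgeR adjusted p 0.128 to 0.342). The male value was called by DESeq2 (adjusted p 0.000563), without a filter on low counts (edgeR adjusted p 0.00448) and without male Myf5High replicate 2 (edgeR adjusted p 0.0266).

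Fstl3 (ENSMUSG00000020325, chromosome 10, 79777272 to 79782630) encodes a follistatin-like protein known mainly for binding activins and myostatin. It had 39.1 and 65.7 CPM in female Myf5High, 43.2 and 50.3 in male Myf5High, 11.3 and 14.3 in female Myf5Low and 15.01 and 18.4 in male Myf5Low. The fractions did not overlap, at 49.6 ± 11.7 against 14.8 ± 2.93 CPM (SD, n = 4 each). Fstl3 rose by a log2 change of 1.76 ± 0.271 (SE; adjusted p 0.00144, edgeR) in 4 of 4 pools. The female value was 2.03 (SE 0.388; edgeR adjusted p 0.0247), lost without female Myf5High replicate 2 or either female Myf5Low library (edgeR adjusted p 0.168 to 0.412), and the male value 1.48 (SE 0.379; edgeR adjusted p 0.176), called without a filter on low counts (edgeR adjusted p 0.0469). Over both sexes Fstl1 and Fstl3 were called in 8 of 8 fits that left out 1 library. Nbl1, a DAN-family antagonist and the gene of this list of 19 with the highest mean level per kb (60.4, below Chrdl2 at 98.96), had a log2 fold change of 0.65 (SE 0.178) and was not called by edgeR (adjusted p 0.102), while DESeq2 called it (adjusted p 0.0181).

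**Figure D3:**
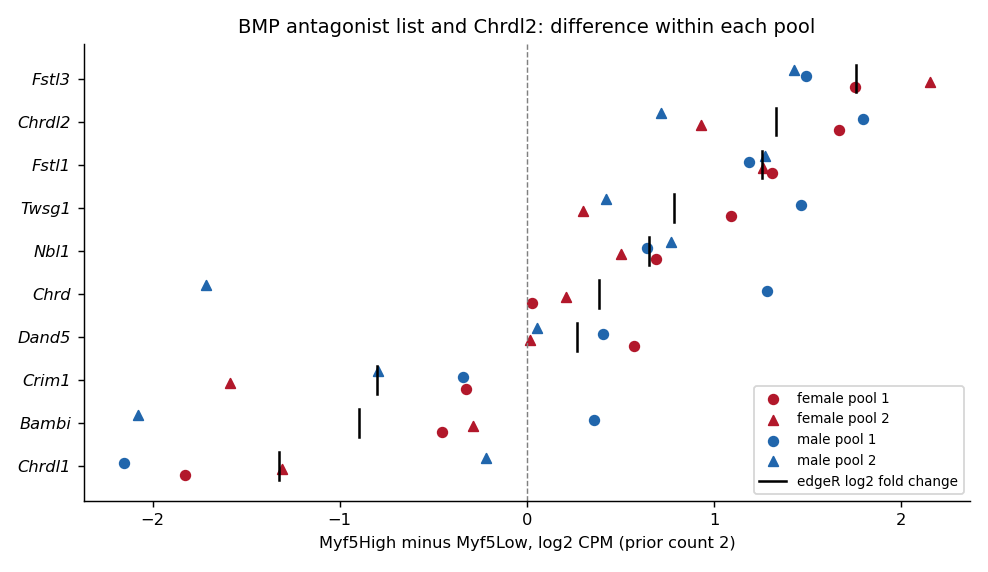
Difference of Myf5High minus Myf5Low in log2 CPM within each of 4 pool pairs (red: female, blue: male) for Chrdl2 and the 9 tested genes of the antagonist list, with the edgeR log2 fold change as a black bar. Fstl3, Chrdl2, Fstl1, Twsg1, Nbl1 and Dand5 have all 4 pools to the right of 0, Dand5 by as little as 0.0169. Crim1 and Chrdl1 have all 4 to the left, and Chrd and Bambi have pools on both sides.

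Marker genes of other cell states and types also differed between the fractions. Of 9 muscle stem cell markers 2 were higher in Myf5High, beside 0.767% of all genes tested: the sorted gene Myf5 and Calcr, the calcitonin receptor of quiescent stem cells, which rose by 0.89 on the log2 scale (SE 0.207; edgeR adjusted p 0.0389) in 4 of 4 pools. The direction of Myf5 was set by the sort, so nothing is read from its call. The summed stem cell markers overlapped, at 5626 to 7539 CPM in Myf5High and 6000 to 6426 in Myf5Low, and the log2 fold changes of Itga7 (-0.47), Cxcr4 (-0.13) and Vcam1 (-0.00419) were negative. Of 8 myogenic commitment markers 2 were lower in Myf5High, Myog and Mymk, beside 0.435% of all genes tested, while Ckm had a log2 fold change of 0.23 (1.06 within males, where Myh3 had 0.82), neither called, and the summed level of the 8 was 77.6 to 351 CPM in Myf5High and 286 to 864 in Myf5Low. The 6 mural markers summed to 148 to 195 CPM in Myf5High and 253 to 555 in Myf5Low, with Acta2 called lower and log2 fold changes from -1.73 (Acta2) to 0.24 (Cspg4). The 7 genes listed as fibro-adipogenic markers summed to 1402 to 1815 CPM in Myf5High and 776 to 1234 in Myf5Low, a sum made mostly of Cd34 and Dpt. These 2 lay far above Pdgfra of the same list, so the sum is not read as a level of fibro-adipogenic cells. Dpt was called higher in Myf5High, and the remaining 5 tested were not called, with log2 fold changes of 0.82 for Lum, 0.58 for Cd34, 0.26 for Col1a1, 0.11 for Dcn and -0.60 for Ly6a. Their means were 798 CPM for Cd34, 327 for Dpt, 86.2 for Col1a1, 77.0 for Dcn, 30.2 for Ly6a and 5.14 for Lum, while Pdgfra, which was not tested, lay between 0 and 4.33 CPM. C1qa, 1 of 8 immune markers (6 tested), was called lower in Myf5High, where the list summed to 20.7 to 56.9 CPM against 50.3 to 93.8 in Myf5Low, while Cd74 had a log2 fold change of 0.31. The 5 glial markers (4 tested, 0 called by edgeR) had a median log2 fold change of -0.62. The 12 dissociation early genes all had a positive log2 fold change, with a median of 0.36 beside -0.02 over all genes, and 0 were called by edgeR, Ier3 coming closest (1.03, edgeR adjusted p 0.0505). Their sum was 18525 to 36661 CPM in Myf5High and 17820 to 27872 in Myf5Low. The 8 endothelial markers summed to 250.3 to 552 CPM in Myf5High and 380 to 798 in Myf5Low with 0 called by edgeR, and their log2 fold changes ran from -1.51 (Vwf) to 0.99 (Tek), 7 of the 8 being negative. The part of these cells and genes in the differences of Chrdl2, Fstl1 and Fstl3 was not tested, and in such bulk libraries fewer cells of a type and less RNA per cell cannot be told apart.

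Neither inhibitory Smad was called between the fractions. Smad6, which competes for receptor-activated Smads, had 8.08 and 2.04 CPM in Myf5High and 6.59 and 2.12 in Myf5Low of females, and 7.20 and 4.60 in Myf5High and 4.70 and 2.87 in Myf5Low of males. Replicate 1 was above replicate 2 in all 4 groups, and the log2 fold change of Myf5High against Myf5Low was 0.43 (SE 0.699; edgeR adjusted p 0.944). Smad7, which brings ubiquitin ligases to the receptors, had 32.3 and 12.2 CPM in Myf5High and 22.0 and 12.9 in Myf5Low of females, and 9.13 and 33.2 in Myf5High and 35.6 and 17.0 in Myf5Low of males. Replicates differed by more than the groups did, and its log2 fold change was 0.01 ± 0.411 (SE; adjusted p 1.0, edgeR). The direction of both turned when single libraries were left out, with ranges of -0.23 to 0.93 for Smad6 and -0.59 to 0.34 for Smad7.

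None of the Id genes was called between the fractions. Id1 (ENSMUSG00000042745) had 94.1 and 92.2 CPM in Myf5High and 92.6 and 118 in Myf5Low of females, and 51.4 and 78.6 in Myf5High and 105 and 79.6 in Myf5Low of males. Its fractions overlapped, with a log2 change of -0.35 ± 0.209 (SE; adjusted p 0.70, edgeR), and -0.21 without male Myf5High replicate 1. Id2 (ENSMUSG00000020644) had 131 and 173 CPM in Myf5High and 151 and 228 in Myf5Low of females, and 233 and 241 in Myf5High and 219.5 and 264 in Myf5Low of males. Its fractions overlapped too, and its log2 fold change was -0.17 ± 0.19 (SE; adjusted p 0.901, edgeR), from -0.31 without female Myf5Low replicate 1 to -0.00751 without female Myf5Low replicate 2.

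Id3 (ENSMUSG00000007872, chromosome 4, 136143497 to 136145755) had 1148 and 625 CPM in Myf5High and 493 and 591 in Myf5Low of females, and 369 and 160.1 in Myf5High and 133 and 348 in Myf5Low of males. Between the fractions Id3 overlapped widely, with a log2 change of 0.42 ± 0.288 (SE; adjusted p 0.761, edgeR) that ranged from 0.0624 without male Myf5High replicate 1 to 0.85 without male Myf5Low replicate 2. The pools disagreed, with differences of 1.22, 0.08, 1.47 and -1.12 in log2 CPM for female pools 1 and 2 and male pools 1 and 2. Id4 (ENSMUSG00000021379) was scarce, from 3.57 CPM in female Myf5Low replicate 1 to 22.0 in male Myf5High replicate 2, with a log2 change of -0.17 ± 0.432 (SE; adjusted p 0.967, edgeR). Its direction turned when single libraries were left out, with a range of -0.55 to 0.46.

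Between the sexes, 1 of the 9 genes was called, against 1.65% of the genes tested (0.733% higher in females and 0.921% lower), and the median log2 fold change of the 9 was -0.06 beside -0.02 over all genes. That gene was Id3, whose 4 female libraries were above all 4 male libraries, at 714 ± 295 against 253 ± 123 CPM (SD, n = 4 each). Groups of 4 libraries that do not overlap between the sexes were found for 7.08% of genes tested (3.59% higher in females and 3.5% lower). Id3 was higher in females by a log2 change of 1.46 ± 0.293 (SE; adjusted p 0.0133, edgeR). If libraries of a pool pair came from the same mice, the comparison rests on 2 independent pools per sex. With the counts of each pool pair summed the value was 1.44 (SE 0.183; edgeR adjusted p 0.00101). The call was lost in DESeq2 (adjusted p 0.0704), and in edgeR without female Myf5High replicate 1 (adjusted p 0.0521) or female Myf5Low replicate 2 (adjusted p 0.0537).

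The remaining Id genes were not called: Id1 had the sign of Id3, and Id2 and Id4 the opposite one. Id1 had 99.2 ± 12.6 CPM in females and 78.7 ± 22.0 in males (SD, n = 4 each), with a log2 change of 0.36 ± 0.209 (SE; adjusted p 0.477, edgeR), and 0.22 without male Myf5High replicate 1. Id2 had 170.5 ± 41.9 in females and 239 ± 18.4 in males, a log2 change of -0.50 ± 0.191 (SE; adjusted p 0.237, edgeR). Id4 had 8.67 ± 4.12 in females and 18.0 ± 5.95 in males, a log2 change of -1.02 ± 0.434 (SE; adjusted p 0.289, edgeR), from -1.65 without female Myf5Low replicate 2 to -0.64 without male Myf5High replicate 2. Whether Id3 differs from its paralogs in its response to sex was not tested.

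Per kb of exon, Id3 made up 62.4% to 82.4% of the summed Id level in the female libraries and 28.6% to 59.1% in the male libraries. Id2 made up 6.89% to 17.7% in females and 27.5% to 37.7% in males. The summed Id level was 418 to 778 CPM per kb in females and 261 to 376 in males, without overlap. Single genes without overlap between the sexes made up 7.08% of those tested. Id3 was the largest part of the sum in females, so the gap restates the Id3 difference. Id1, Id2 and Id4 each overlapped between the sexes, and Id2 and Id4 had the lower mean in females. Id3 was the most abundant Id transcript in all 4 female libraries and in male Myf5High replicate 1 and male Myf5Low replicate 2. It stood below Id2 in male Myf5High replicate 2, at 34.2% against 37.7%, and below both Id1 and Id2 in male Myf5Low replicate 1, at 28.6% against 34.8% and 34.5%.

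**Figure D4:**
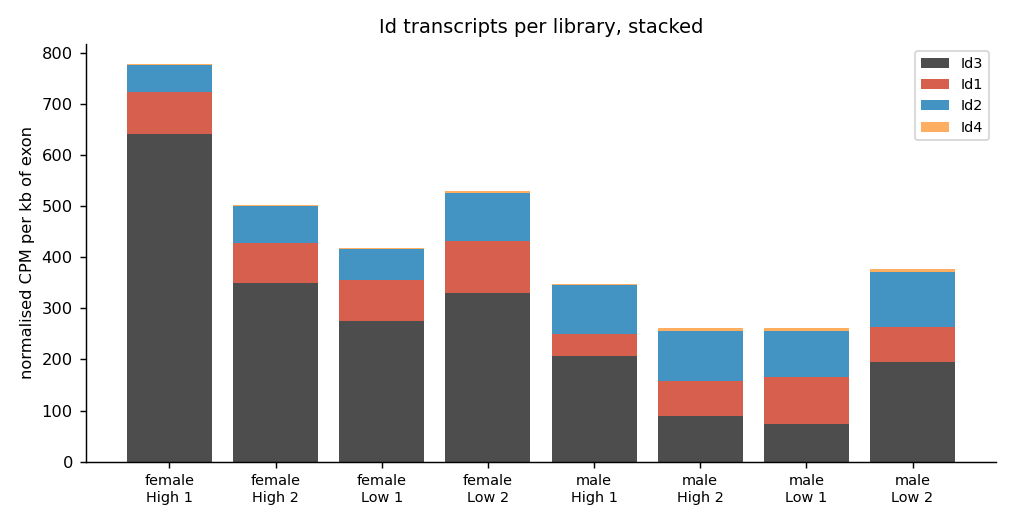
Stacked bars of the normalised CPM per kb of exon of Id3, Id1, Id2 and Id4 in each of the 8 libraries, from 0. The Id3 segment is tallest in female Myf5High replicate 1, and the totals run from 418 to 778 in females and from 261 to 376 in males.

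Of the genes beside Id3, Chrdl2 had a log2 fold change between the sexes of 0.50 (SE 0.233; edgeR adjusted p 0.34). It was called in 1 of 8 fits that left out 1 library, without male Myf5High replicate 1 (0.89, edgeR adjusted p 0.0134), and was 0.26 without male Myf5High replicate 2 (edgeR adjusted p 0.627). Bmp4 (-0.11), Bmpr1a (-0.06), Smad6 (-0.02) and Smad7 (-0.26) had log2 fold changes between the sexes no larger than their SE, from 0.231 to 0.702, and were not called by edgeR, with adjusted p from 0.837 to 0.998.

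Other genes of the pathway were read from lists of 58, of which 35 were tested. Between the fractions 2 of the 35 were called, the antagonists Fstl1 and Fstl3, which is 5.71% beside 1.2% of all genes tested. Between the sexes 1 of the 35 was called (2.86% beside 1.65%). The lists were chosen with earlier results of these data known, so nothing is read from these shares. Among ligands, 2 of 13 were tested, Bmp6 at 9.14 CPM per kb and Bmp2 at 5.21, both below the 101 of Bmp4, and neither was called. Without Bmp4 the listed ligands summed to 60.6 to 80.2 CPM in females and 39.4 to 57.6 in males. This sum leaves out the most abundant ligand, since Bmp4 had 103 to 371 CPM in females and 169 to 312 in males, which overlapped. Bmp2 and Bmp6 each overlapped between the sexes too, so no sex difference of the ligands is read from the sum. Of 10 receptors and co-receptors, all tested, 0 were called between the fractions and 1 was lower in females. The co-receptors Rgma (33.6 CPM per kb) and Eng (21.2) had the highest means of this list, although Eng was above the next gene, Rgmb (20.3), in 2 of 8 libraries, both male.

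Eng (endoglin, ENSMUSG00000026814), a co-receptor prominent in endothelial cells, had 54.98, 41.0, 64.3 and 66.1 CPM in the female libraries and 68.0, 128, 97.7 and 165 in the male libraries. The sexes did not overlap, and Eng was lower in females by a log2 change of -1.02 ± 0.241 (SE; adjusted p 0.0381, edgeR). The call was lost with the pools summed (adjusted p 0.0603 by edgeR) and on leaving out any female library, male Myf5High replicate 2 or male Myf5Low replicate 2 (edgeR adjusted p 0.0628 to 0.158). The 8 endothelial markers differed too: their summed level was 250.3 to 424 CPM in females and 463 to 798 in males, and 1 of the 8, Egfl7, was called lower in females, beside 0.921% of all genes tested. The part of endothelial RNA in this difference was not tested.

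Among dissociation early genes, 3 of 12 were called higher in females, Dusp1, Btg2 and Nr4a1, beside 0.733% of all genes tested. Junb, Ier2, Btg2 and Nr4a1 were higher in females without overlap, beside 3.59% of all genes tested. Jun, Egr1 and Atf3 had negative log2 fold changes (-0.0436, -0.176 and -0.00742). The summed level overlapped, from 17820 to 33912 CPM in females and 18525 to 36661 in males. That sum came mostly from Egr1, Jun, Fos and Zfp36, none of them called, and says little about the less abundant genes. Of 8 myogenic commitment markers 1, Myh3, was called lower in females (edgeR adjusted p 0.0279), beside 0.921% of all genes tested, at 0 to 6.12 CPM in females and 0.448, 1.32, 100.1 and 175 in males, which overlapped. The other 7 were not called and had log2 fold changes of both signs, from -2.65 (Tnnt2) to 1.68 (Myog), with Myod1 at 0.64 and a list median of 0.0741, and the list summed to 95.5 to 864 CPM in females and 77.6 to 374 in males. The part of these genes, and of the endothelial difference, in the Id3 value was not tested.

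Of 10 Smads and Smad regulators 9 were tested and 0 were called in either comparison. Smad5, a receptor-activated Smad, stood at 31.0 CPM per kb and the co-repressor Ski at 36.5. Of 3 further target genes 2 were tested and 0 were called, with Atoh8 at 39.7 CPM per kb and Msx1 at 3.49. The E proteins, which Id proteins bind, were all tested with 0 called. Tcf4 had the highest level of the 3, at 39.3 CPM per kb, and Tcf3 had 9.40.

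For each listed gene the genes with the most similar profile over the 8 libraries were sought among 9548 (9549 for Smad6) with a mean of at least 5 CPM, by the Pearson correlation of log2 CPM. All points share the same 8 libraries and scaling, and with 8 points and this many candidates high values arise readily. Id3 was most like Ctsl (r = 0.98) and Chkb (0.98). Chrdl2 was most like Ncam1 (0.972) and Prex1 (0.961), Bmp4 like Tmem131l (0.964) and Med24 (0.962), and Bmpr1a like Spcs2 (0.94) and Klf3 (0.932). Id1 was most like Akip1 (0.989) and Tgif2 (0.955), Id2 like 1810043G02Rik (0.962) and Acot2 (0.957), and Id4 like Tle4 (0.928) and Slc35a2 (0.926). For Smad6 the closest were Zfp472 (0.928) and Stag1 (0.926), and for Smad7 they were Mib1 (0.946) and Dzip1l (0.939).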

How the data were processed

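Polyadenylated RNA of sorted muscle stem cells was sequenced as single reads, per the labels. The deposited values are raw HTSeq counts (whole numbers) for each Ensembl gene on GRCm38, per the submitters' processing notes. The aligner, annotation release and strand setting were not given in the sources used here, so reads of antisense partners cannot be told apart. Id4, Bmp4 and Bmpr1a overlap antisense genes in GENCODE M21. Of 27554 genes, 27518 matched M21, which gave symbols, positions and exon lengths. HTSeq's tallies of unassigned reads stayed out of library sizes.

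The tests used edgeR 4.0.16 in R 4.3.3: filterByExpr (minimum count 10, minimum total 15; 11730 genes kept), TMM scaling, 1 mean per group over 8 libraries, and two-sided quasi-likelihood tests, adjusted by Benjamini-Hochberg over all genes tested and called under 0.05. Levels are CPM after TMM, and levels below 3 counts (0.672 to 0.986 CPM) were taken as not detectable; this floor covers counting error only. SEs were derived from the F statistic. The common biological coefficient of variation was 0.36. P-values measure the spread between libraries of pooled mice.

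Libraries whose pool labels share a sex and number were set side by side, although the labels do not state that they hold the same mice. On simulated counts of 11730 genes for Myf5High against Myf5Low, edgeR recovered 191 of 200 genes changed by a log2 fold of 2, with 7 false calls, and DESeq2 recovered 190 with 21.

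The 9 genes and all gene lists were chosen with earlier results of these data known. Named were the 9 genes, called genes of the pathway and marker lists, the 2 highest genes per kb of each pathway list, and for each of the 9 the 2 genes with the most similar profile. Alternatives were RLE scaling, no filter, a filter at a mean of 50 counts, DESeq2 1.42.0, the pool number as a replicate block, Gm42418 and mitochondrial genes left out, fits of 1 sex, summed pools, and leaving out each library.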

Additional observations from a re-analysis of the deposited data

Results flagged for a closer look

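Single libraries stood apart from the other 3 of a set of 4 (by fraction or by sex) in 5 of 36 sets tested with Dixon's ratio at its 95% critical value. Chance flags about 1 in 20 sets. Id1 was high in female Myf5Low replicate 2, at 118 CPM against 92.2 to 94.1 in the remaining female libraries (ratio 0.925). Id4 was high in male Myf5High replicate 2, at 22.0 CPM against 7.76 to 9.93 in Myf5High (0.848), and low in male Myf5High replicate 1, at 9.13 against 19.8 to 22.0 in males (0.83). Chrdl2 was low in male Myf5High replicate 2, at 257 CPM against 568 to 625 in Myf5High (0.845). Bmpr1a was high in male Myf5High replicate 1, at 49.2 CPM against 21.3 to 26.0 in Myf5High (0.834). The male Myf5High pair gave 4 of these 5 values. On the axis of largest variance between libraries (first principal component, 22.9% of variance) male Myf5High replicate 2 lay at 62.9. The remaining male libraries lay at 17.3 to 22.5, and female Myf5Low replicate 2 lay at the other end, at -52.5. Male Myf5High replicate 2 also had the lowest TMM factor (0.876) and the highest Gm42418 share (28.8%).

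For Bmpr1a, both female pools were lower and both male pools higher in Myf5High. The female minus male log2 difference was -1.38 and did not pass the test of the difference over all genes (edgeR adjusted p 1.0).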

How the results depend on the processing

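Between Myf5High and Myf5Low 141 genes were called over both sexes, 39 within females and 20 within males, 0 differed between the sexes in this contrast, and 194 were called between the sexes. Without a filter on low counts these became 291, 167, 111, 14 and 477, with 2 of the 9 listed genes called within females (Bmp4 beside Chrdl2) and 1 within males (Chrdl2). With DESeq2 they became 234, 112, 72, 2 and 371, with 1 of the 9 called in females and 1 in males (Chrdl2 in both), and 0 between the sexes, where Id3 was lost. Chrdl2 was selected on this contrast, so nothing is read from the counts that include it. The 4 female libraries alone gave 77 genes, 1 of them Chrdl2, and the 4 male libraries alone gave 2. Leaving out 1 library at a time gave 82 to 243, 9 to 117, 8 to 74, 0 to 8 and 82 to 558 genes, with 0 to 1 of the 9 called in females, 0 to 1 in males and 0 to 2 between the sexes. The lowest counts of the contrast over both sexes (82) and between the sexes (82) came without female Myf5Low replicate 2, and the highest without male Myf5High replicate 2 (243) and male Myf5High replicate 1 (558). RLE scaling, the stricter filter, and leaving out Gm42418 and mitochondrial genes kept these counts within 1.5 times.

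Libraries with the same pool number are not stated to share mice, and their deviations from the group means correlated at 0.0275 in females and -0.000273 in males. The pool number as a replicate block gave 136, 33 and 26 genes and 0 for the difference between sexes; it turned Smad7 between the fractions to -0.11, gave Chrdl2 1.28, and left Fstl1 within females at an adjusted p of 0.0575 (edgeR). The stricter filter gave Smad7 -0.0109. Summed pools turned the sex difference of Bmp4 to 0.0131 and of Bmpr1a to 0.00585. Directions that turned when 1 library was left out belonged to genes that were not called: between the fractions Id4 (-0.55 to 0.46), Bmpr1a (-0.37 to 0.0872), Smad6 (-0.23 to 0.93) and Smad7 (-0.59 to 0.34), within males Bmp4 (-0.36 to 0.52), and between the sexes Bmp4 (-0.36 to 0.15), Bmpr1a (-0.25 to 0.21), Smad6 (-0.68 to 0.32) and Smad7 (-0.71 to 0.34). The cause was not tested. Each group had 2 libraries, and Smad6 rested on 8 to 30 counts per library.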
